A study of Mus musculus with 12 samples.

Results

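The 10 genes described here encode peroxiredoxins (Prdx1, Prdx2, Prdx3, Prdx5 and Prdx6), thioredoxins (Txn1 and Txn2), glutathione peroxidases (Gpx1 and Gpx4) and the mitochondrial superoxide dismutase Sod2. They were taken by symbol from the 24824 genes of the deposited expression table, and 10 of 10 were among the 10615 genes whose mean over all libraries reached 1 FPKM, the level above which genes were tested. FPKM divides fragment counts by gene length and by the library's total, so levels of different genes can be set side by side. Its sum over all genes still differed between libraries, from 377671 in A1 to 505891 in B3, so changes between groups depend on the scaling. The study exposed AML12 cells, an immortalized mouse hepatocyte line whose genotype is labelled WT, to copper overload and to a bile acid for 24 h and sequenced polyadenylated RNA. Group A grew in standard medium with nothing added. Group B received CuCl2 at 300 μM with elesclomol, an ionophore that carries copper into cells, at 40 nM (together Cu/ES). Group C received the same Cu/ES dose together with taurocholic acid (TCA) at 1000 μM, and group D received TCA at 1000 μM without Cu/ES. Each group had 3 libraries, written A1 to D3 below, and since nothing states that they came from separate cultures, p-values measure the spread between these libraries, which may be technical.

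Library totals, recovered as whole reads from the low FPKM values, ran from 29115011 to 39782142 reads, and each member had between 297 and 113222 reads in each library. Of 9 hepatocyte markers listed, 6 were in the table, and Alb, Fgb and Hnf4a were at or near 0 in every library, with a highest FPKM of 0.0758 for Alb. The epithelial keratins Krt8 and Krt18 were at a mean of 344 and 285 FPKM in group A and at 183 and 81.9 in group B. They were the 2 listed markers that averaged at least 1 FPKM in group A, and Apoa1 averaged 0.00863 in group A and 1.86 in group B. The hepatocyte label is that of the cell line, and the tabled secreted liver proteins do not bear it out in untreated cells. Genes listed as markers of other liver cells also differed between groups, though all libraries came from the AML12 line. The 4 tabled markers of stellate cells or fibroblasts summed to at least 132 FPKM in every library of group A and 114 in group D. They summed to at most 5.5 in group B and 1.80 in group C. By mean, Col3a1 led in groups A, B and D, while in group C Col1a1 (0.578 FPKM) and Col3a1 (0.570) were level. The 4 cholangiocyte markers, mostly Krt19 and Sox9, summed to between 158 and 326 FPKM in groups A and D and to between 111 and 139.9 in groups B and C. The 2 genes went opposite ways, Krt19 from a mean of 268 FPKM in group A to 77.3 in group B and Sox9 from 10.6 to 50.9. The 3 tabled macrophage or leukocyte markers were almost all Cd68, and summed to between 72.5 and 102 in group A and to between 23.9 and 37.0 in the other groups, with Adgre1 and Ptprc near 0. The 4 endothelial markers summed to at most 1.25 in groups A and D, to between 6.79 and 10.5 in group B and to between 16.5 and 19.7 in group C, mostly from Pecam1. The part of these shifts in the results below was not tested. In bulk RNA, fewer cells of a type and less RNA per cell cannot be told apart.

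Superoxide, a by-product of respiration, is converted to hydrogen peroxide by superoxide dismutases, and peroxiredoxins and glutathione peroxidases then reduce the peroxide. Most peroxiredoxins are recharged by thioredoxin, while Prdx6 draws on glutathione. Thioredoxin is in turn reduced by thioredoxin reductase and glutathione by its own reductase, with NADPH as the final source of electrons. The cytosol and the mitochondrial matrix each hold a set of these enzymes encoded by separate genes, which is why the cytosolic members (Prdx1, Prdx2, Prdx6, Txn1 and Gpx1) were set against the mitochondrial ones (Prdx3, Txn2 and Sod2). Prdx5 and Gpx4 each give proteins found in more than one compartment and were kept in a class of their own. Many genes of the system carry antioxidant response elements in their promoters, the sites bound by the factor Nrf2.

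Promoter sequences of Prdx1 and Prdx3 are shown because these genes were the members that rose and fell most with Cu/ES, and each was the only member whose window held one of the motifs searched. Windows were the 250 bases before the transcription start in RefSeq (build GRCm38.p6), where 9 of the 10 members had an entry. The antioxidant core was searched as TGACNNNGC on both strands, the heat shock pair as GAANNTTC or TTCNNGAA, each of which reads alike on both strands, and the metal response core as TGCACNC or TGCGCNC on both strands. Capitals mark the antioxidant core in Prdx1, on the minus strand 133 to 125 bases before the start, and the heat shock pair in Prdx3, 180 to 173 bases before it.
Prdx1 (chr4:116685349-116685598, plus strand): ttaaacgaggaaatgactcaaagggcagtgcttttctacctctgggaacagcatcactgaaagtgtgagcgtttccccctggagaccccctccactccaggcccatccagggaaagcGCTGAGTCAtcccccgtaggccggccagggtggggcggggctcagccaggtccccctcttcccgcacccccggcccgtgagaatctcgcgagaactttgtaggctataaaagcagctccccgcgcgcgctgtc
Prdx3 (chr19:60874539-60874788, minus strand): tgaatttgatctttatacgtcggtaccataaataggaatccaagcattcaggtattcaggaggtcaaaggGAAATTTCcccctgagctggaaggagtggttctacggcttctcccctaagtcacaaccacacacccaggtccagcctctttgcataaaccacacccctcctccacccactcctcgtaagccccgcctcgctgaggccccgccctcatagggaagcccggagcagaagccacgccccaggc
Of all RefSeq windows, 10.2% held the antioxidant core and 12.8% the heat shock pair, and of the windows of genes tested 12% and 9.84%. These are shares of windows while members are counted as genes, and 1 of 9 members with each is close to them. The metal response core was in 21.4% of all windows, in 30% of the windows of genes tested and in 0 of 9 members' windows, which says only that these letters are not in those windows.

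Among 39 partner genes of the same system with a window, 5 (12.8%) held the antioxidant core. It was in a window of 14.2% of the 8504 tested genes that had one, so the partners are near that share. The 29-base stretches around the core in these 5 genes are set beside that of Prdx1 because the genes differ in how they moved. The core is in capitals with 10 bases on each side, read on the strand that carries it.
Prdx1 (chr4:116685456-116685484, minus strand): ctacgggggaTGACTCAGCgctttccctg
Txnrd1 (chr10:82859104-82859132, minus strand): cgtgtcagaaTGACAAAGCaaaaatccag
Sesn2 (chr4:132510474-132510502, minus strand): cgcagcgggcTGACAGAGCcgggcgagcg
Gclm (chr3:122245413-122245441, minus strand): tcgtgagagtTGACGGTGCgcccgggagc
Sod1 (chr16:90220696-90220724, minus strand): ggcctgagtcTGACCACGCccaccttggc
G6pdx (chrX:74428919-74428947, plus strand): gcgtgtgcttTGACTGAGCtgacccgcct
Prdx1, Txnrd1, Sesn2, Gclm and Sod1 rose between groups A and B, whereas G6pdx, the first enzyme of the pentose phosphate pathway, fell by 2.09 on the log2 scale. A part of the core in these changes was not tested. In the Gclm window a match to the metal response core, 138 to 132 bases before the start, overlaps the antioxidant core. G6pdx was named for its motif and not by the rule for partner genes.

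In untreated cells Prdx1 was the most abundant of the 10 transcripts at 299 ± 18.3 FPKM (mean ± SD, n = 3 here and below), followed by Txn1 at 266 ± 15.4, Gpx4 at 176 ± 9.26 and Prdx5 at 120.1 ± 4.90. Prdx2 and Gpx1 came next, with library values that overlapped each other, then Txn2. Prdx6 at 52.7 ± 3.02 and Prdx3 at 50.2 ± 0.537 overlapped, and Sod2 was lowest at 12.9 ± 0.131 FPKM. In group B the order became Prdx1, Txn1, Prdx6, then Txn2 and Gpx4, which overlapped, then Prdx2, Prdx5 and Gpx1, and last Prdx3 and Sod2, which overlapped. Prdx6 thus moved from the eighth to the third place. In group C the neighbours that overlapped were Prdx6 and Txn2, Prdx2 and Prdx5, and Prdx3 and Sod2. In group D, Prdx1, Txn1 and Gpx4 led, Prdx5, Txn2 and Prdx2 followed with overlaps between neighbours, then Gpx1, then Prdx3 and Prdx6, which overlapped, and Sod2.

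**Figure D1:**
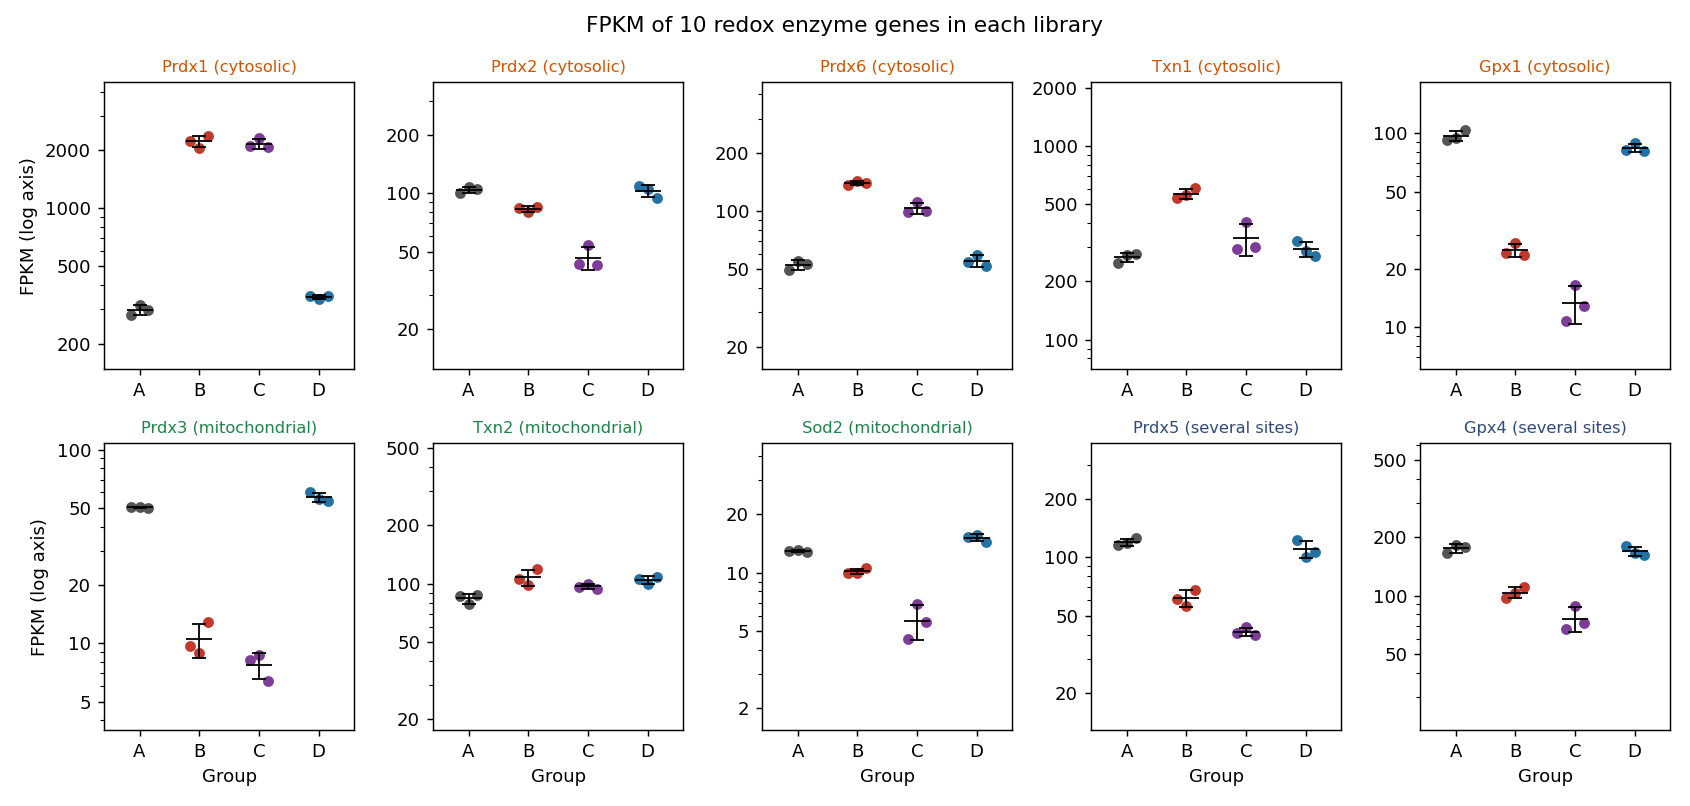
FPKM of each gene (log axis, spanning the same ratio in every panel) in the 3 libraries of groups A (untreated), B (Cu/ES), C (Cu/ES with TCA) and D (TCA). Points are libraries and bars the mean with 1 SD. Prdx1 stood between 2048 and 2346 FPKM in group B and between 280.4 and 317 FPKM in group A, while Prdx3 dropped from about 50.2 to 10.5 FPKM on average.

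The first comparison asked how copper overload changed these genes. Between groups A and B, Prdx1, Prdx6 and Txn1 rose by more than 1 on the log2 scale and Prdx3 and Gpx1 fell by more than 1, each past an adjusted p of 0.05. All genes tested had a median log2 fold change of -1.10 in this comparison, 10.1% of them rose and 53% fell past both thresholds, and 20.1% rose and 72% fell past the adjusted p alone. Past the adjusted p alone 4 of the 10 members rose and 6 fell, and 8 of 10 lay above the median of all genes (7 with a filter at 5 FPKM, 5 with quantile normalization and 4 with no filter). The members' own median was -0.32. The libraries of groups A and B did not overlap for any member, as was so for 20.5% of all genes upward and 72.4% downward. Median-ratio scaling, which brings the bulk of genes to the same level, left 8 members higher and 2 lower past the adjusted p, and quantile normalization gave 5 and 5. Prdx1, Prdx6 and Txn1 were higher and Prdx3 and Gpx1 lower under all 22 alternatives tried, whereas the signs of Prdx2, Sod2, Prdx5, Gpx4 and Txn2 depended on the scaling.

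**Figure D2:**
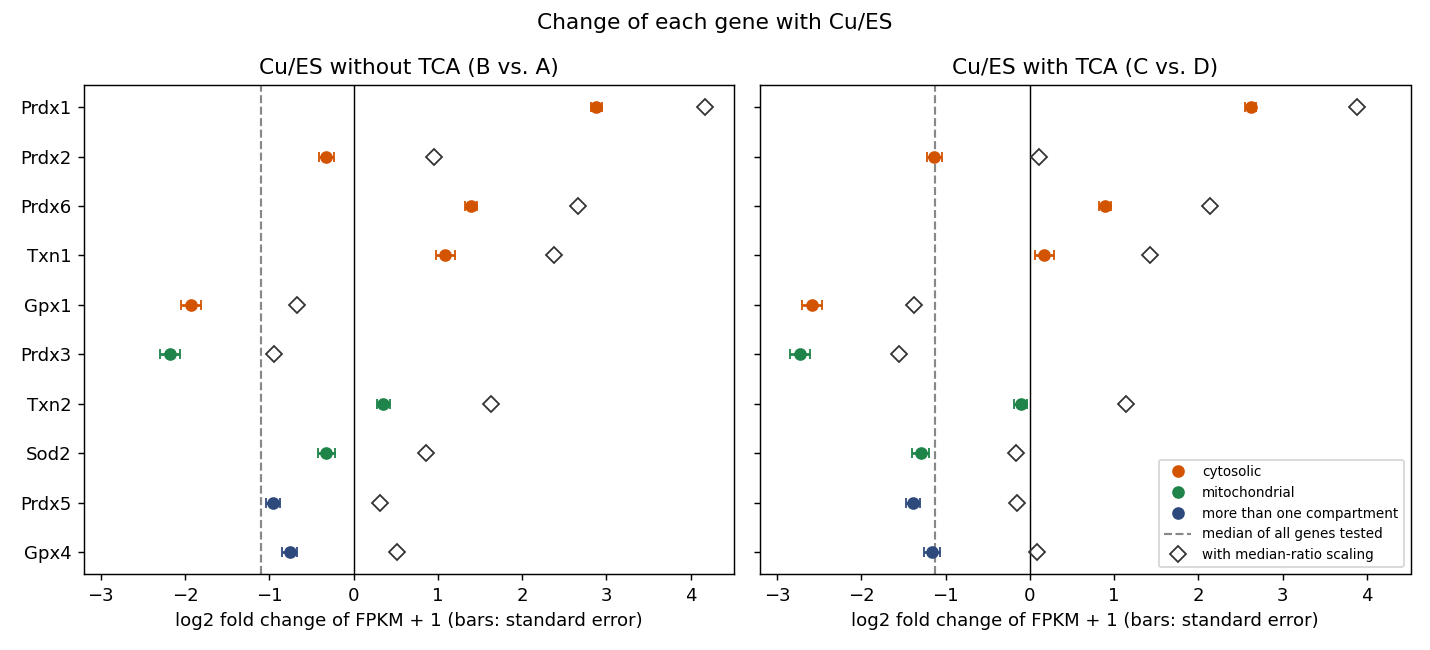
Log2 fold change of FPKM + 1 with Cu/ES for each gene without TCA (left, group B vs. A) and with TCA (right, group C vs. D). Filled points with bars are the fitted value and its standard error, open diamonds the value after median-ratio scaling, and the dashed line the median of all genes tested, -1.10 and -1.13. Prdx2, Sod2, Prdx5 and Gpx4 lie left of 0 in both panels but right of 0 on the left panel after median-ratio scaling.

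Prdx1, a cytosolic peroxiredoxin that reduces hydrogen peroxide with electrons from thioredoxin, was at 280.4, 317 and 299 FPKM in libraries A1, A2 and A3 and at 2234, 2048 and 2346 in B1, B2 and B3. Every treated library lay far above every control library. The mean was 7.40 times as high, a log2 fold change of 2.88 (SE 0.07, adjusted p = 1.36e-13 in limma), where SE is the standard error of the fit and p-values carry the Benjamini-Hochberg adjustment over all genes tested. Of those genes 1.22% had a larger one. Prdx6, which also acts on oxidized phospholipids, was at 49.5, 55.5 and 53.1 FPKM in untreated cells and 137, 143 and 139.8 in group B. The groups did not overlap, and the log2 fold change was 1.39 (SE 0.07, adjusted p = 1.01e-10 in limma). Prdx2, the other cytosolic member of the family and close in function to Prdx1, did not follow it, with 100.1, 107 and 105 FPKM in untreated cells and 84.0, 79.8 and 85.3 in group B. Its log2 fold change was -0.32 (SE 0.09, adjusted p = 0.00258 in limma) and turned to 0.95 with median-ratio scaling. Part of the Prdx2 exons, 5.67% of their bases in GRCm38, lies opposite Junb, which was at 92.1 ± 9.45 FPKM in group A and 377 ± 43.8 in group B. A further 5.80% lies opposite Rnaseh2a, and since the sources used here do not say whether counting used the strand, reads of these genes may not be told apart.

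Prdx3, the peroxiredoxin of the mitochondrial matrix, moved the other way from Prdx1. It was at 50.7, 50.4 and 49.6 FPKM in untreated cells and at 9.72, 8.89 and 12.8 in group B, with no overlap. The mean was 4.80-fold lower, and the log2 fold change of -2.17 (SE 0.12, adjusted p = 2.36e-10 in limma) lay -1.07 from the median of all genes. Prdx5, found in mitochondria, peroxisomes and cytosol, went from 116, 119 and 126 FPKM to 61.1, 55.9 and 67.9. Its log2 fold change of -0.95 (SE 0.08, adjusted p = 5.78e-08 in limma) lay 0.15 above the median of all genes and became 0.32 with median-ratio scaling. Prdx5 shares 19.1% of its exon bases with Trmt112 on the opposite strand, which was at 35.0 ± 2.59 FPKM in group A and 22.2 ± 1.76 in group B.

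Txn1, the cytosolic thioredoxin that recharges peroxiredoxins such as Prdx1 and Prdx2, was at 248, 273 and 277 FPKM in untreated cells and 538, 560.4 and 604 in group B. All libraries of group B were higher, 2.13-fold on average, with a log2 fold change of 1.09 (SE 0.11, adjusted p = 2.35e-07 in limma). Its smallest value under any alternative was 0.45. Txn2, its mitochondrial counterpart, was at 86.3, 78.3 and 87.5 FPKM and 106, 98.9 and 119 FPKM in the same groups. The groups did not overlap, and the log2 fold change of 0.35 (SE 0.07, adjusted p = 3.80e-04 in limma) became -0.01 on the TPM scale.

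Gpx1, a selenium-containing peroxidase mainly of the cytosol, fell almost as far as Prdx3. It was at 92.8, 94.6 and 104 FPKM in untreated cells and at 24.0, 27.0 and 23.4 in group B, 3.91-fold lower on average. The log2 fold change was -1.93 (SE 0.12, adjusted p = 6.96e-10 in limma) and remained negative, at -0.67, with median-ratio scaling. Gpx4, the selenium-containing enzyme that reduces lipid peroxides in membranes and restrains ferroptosis, went from 166, 183 and 179 FPKM to 97.0, 103 and 111. Its libraries did not overlap between groups, but the log2 fold change of -0.76 (SE 0.09, adjusted p = 1.99e-06 in limma) became 0.52 with median-ratio scaling. Sod2, the manganese superoxide dismutase of the matrix, went from 12.9, 13.1 and 12.8 FPKM to 9.94, 9.99 and 10.5. The groups did not overlap, and the log2 fold change of -0.32 (SE 0.10, adjusted p = 0.00785 in limma) became 0.86 with median-ratio scaling and 0.76 with quantile normalization. Part of the Sod2 transcript matches 12 other genes, 8 of them tabled, with up to 88.7 FPKM in a library. Reads of Sod2 may be split with them in all comparisons.

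By compartment, 3 of 5 cytosolic members rose and 2 fell past the adjusted p between groups A and B, and 1 of 3 mitochondrial members rose and 2 fell, where 20.1% of all genes rose and 72% fell. The falls of the mitochondrial members are thus near the background share. The median log2 fold change was 1.09 for the cytosolic and -0.32 for the mitochondrial class, and both members found in more than one compartment fell, with a median of -0.86. The classes were not apart, since the mitochondrial Txn2 lay above the cytosolic Prdx2 and Gpx1. The mitochondrial median minus the cytosolic one was -1.41, and -0.19 with quantile normalization. With so few members in a class, compartment is a description of these genes only.

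Counterparts in the 2 compartments were therefore compared within each library, as log2 ratios of FPKM + 1. A single scaling factor for a library enters these ratios only through the added 1. Quantile normalization shifts genes by rank and could change the ratios, which were not computed under it. For 5 pairs in 4 comparisons, 20 tests in all, the log2 ratio of the mitochondrial to the cytosolic gene was compared by a two-sided exact permutation test, in which 3 libraries against 3 cannot go below p = 0.1. The Prdx3/Prdx1 ratio went from -2.55 ± 0.0932 without to -7.60 ± 0.168 with Cu/ES (groups A and B), a difference of -5.06 and the largest of the 5 pairs. The Txnrd2/Txnrd1 ratio of thioredoxin reductases went from -3.21 ± 0.0507 to -6.84 ± 0.188, the Sod2/Sod1 ratio from -4.60 ± 0.0299 to -5.81 ± 0.0327, and the Txn2/Txn1 ratio from -1.65 ± 0.136 to -2.39 ± 0.0903. All 4 were lower in every library of group B than in any of group A. The Glrx2/Glrx ratio of glutaredoxins went the other way, from -1.94 ± 0.19 to -0.63 ± 0.224, at low levels in group B, where Glrx2 was at 0.768 ± 0.153 FPKM and Glrx at 1.73 ± 0.206. Each of the 5 differences had an exact permutation p = 0.1, adjusted 0.125 over the 20 tests.

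Between groups D and C, the same 4 ratios were lower and the glutaredoxin ratio higher, again with no overlap (exact permutation p = 0.1 each, adjusted 0.125). The differences were -5.35 for Prdx3/Prdx1, -3.80 for Txnrd2/Txnrd1, -2.01 for Sod2/Sod1 and -0.28 for Txn2/Txn1, which was -0.15 without library C2. The glutaredoxin groups overlapped with a pseudocount of 0.1. Between groups B and C, the Prdx3/Prdx1, Txnrd2/Txnrd1 and Sod2/Sod1 ratios were lower still in group C, with differences of -0.35, -0.72 and -0.54, whereas Txn2/Txn1 was higher by 0.63 (exact permutation p = 0.1 each). Between groups A and D, Prdx3/Prdx1 overlapped, with a difference of -0.06 (exact permutation p = 0.5). Txn2/Txn1 and Glrx2/Glrx overlapped too, with differences of 0.17 and -0.12 (exact permutation p = 0.3 and 0.6). Txnrd2/Txnrd1 was lower in every library of group D than in any of group A, with a difference of -0.55. Sod2/Sod1 was higher in every library, with a difference of 0.26 (exact permutation p = 0.1 each, adjusted 0.125).

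**Figure D3:**
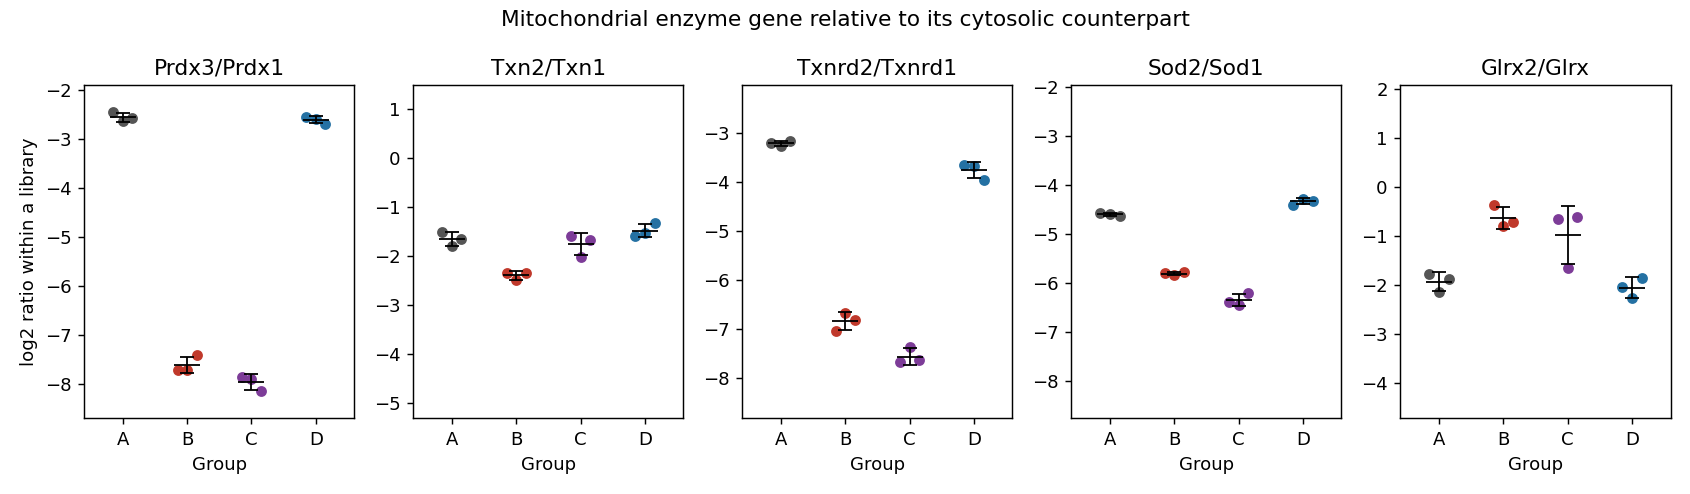
Log2 ratio of the mitochondrial to the cytosolic gene within each library for 5 pairs, by group (A untreated, B Cu/ES, C Cu/ES with TCA, D TCA), each panel spanning the same range of log2 units. Points are libraries and bars the mean with 1 SD. The Prdx3/Prdx1 ratio averaged -2.55 without and -7.60 with Cu/ES (A, B), and the glutaredoxin ratio was the one that was higher in group B than in group A.

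Because FPKM can be compared between genes, the members were also added up. The 10 members summed to 1262 ± 51.2, 3318 ± 193, 2875 ± 218 and 1339.9 ± 56.7 FPKM across groups A, B, C and D. Prdx1 made up 23.7% ± 0.776 of the sum in untreated cells and 66.6% ± 1.17, 74.9% ± 1.43 and 26.0% ± 1.05 in groups B, C and D. Without Prdx1 the other 9 summed to 963 ± 36.6, 1109 ± 56.2, 725 ± 97.3 and 991 ± 54.3 FPKM. On the TPM scale, which divides by each library's summed FPKM, the 10 members summed to 3281 ± 84.6, 6671 ± 313, 6081 ± 119.9 and 3466 ± 77.6 and the 9 without Prdx1 to 2505 ± 56.4, 2229 ± 78.2, 1529 ± 114 and 2564 ± 93.3, so the order of groups A and B without Prdx1 turned with the scaling. The 3 mitochondrial members made up 11.7% ± 0.74 of the sum in group A and 3.87% ± 0.149 in group B, and the cytosolic members 64.9% ± 0.753 and 91.2% ± 0.256. These are shares of transcripts and not of protein.

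The second comparison, group C vs. D, repeated the question in the presence of TCA. Its fold changes came from libraries that those of the first did not use. Both took their spread from the same fit of all 12 libraries, so their p-values are not independent. The median of all genes was -1.13, and 11.2% of genes rose and 53.3% fell past both thresholds. Of the members, Prdx1 rose past both thresholds and 6 fell, namely Prdx2, Gpx1, Prdx3, Sod2, Prdx5 and Gpx4. The background past the adjusted p alone was 20.9% higher and 71.5% lower, and 2 members were higher and 6 lower there. The libraries of these 8 members did not overlap between the groups, against 20.4% of all genes upward and 71.6% downward. Of the 10 members 4 lay above the median of all genes, but Prdx2 and Gpx4 lay close to it (-0.01 and -0.03 from it), and the count was 6 with a pseudocount of 0.1, median-ratio scaling, limma-voom or without library C1, C3 or D1, 3 with no filter and 2 with quantile normalization.

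Prdx1 was at 2095, 2290.2 and 2067 FPKM in group C and 353, 339 and 353 in group D, a log2 fold change of 2.62 (SE 0.07, adjusted p = 2.00e-13 in limma). Prdx6 was at 98.6, 112 and 100.3 and 54.7, 59.3 and 51.8 FPKM, with no overlap and a log2 fold change of 0.89 (SE 0.07, adjusted p = 1.46e-08 in limma). Txn1 was at 294, 407 and 300.4 and 321, 288 and 271 FPKM. Its groups overlapped, and the log2 fold change of 0.17 (SE 0.11, adjusted p = 0.144 in limma) became -0.31 with quantile normalization and 1.43 with median-ratio scaling, and passed without library C1 (0.26, adjusted p = 0.0494). Txn2 was at 96.7, 100.05 and 93.9 FPKM in group C and 106, 99.2 and 108 in group D, which overlapped, with a log2 fold change of -0.11 (SE 0.07, adjusted p = 0.172 in limma) that became 1.14 with median-ratio scaling and -0.40 on the TPM scale, past the adjusted p in both.

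Prdx3 and Gpx1 had the largest falls. Prdx3 was at 8.15, 8.68 and 6.36 FPKM in group C and 60.1, 55.6 and 54.3 in group D, a log2 fold change of -2.73 (SE 0.12, adjusted p = 1.82e-11 in limma). Gpx1 was at 10.7, 16.5 and 12.8 and 81.8, 88.7 and 81.3 FPKM, with a log2 fold change of -2.59 (SE 0.12, adjusted p = 2.50e-11 in limma). Both lay more than 1 below the median of all genes. Prdx2 (log2 fold change -1.13), Gpx4 (-1.16), Sod2 (-1.29) and Prdx5 (-1.39) fell by amounts close to the median of all genes, and with median-ratio scaling they came to 0.11, 0.09, -0.16 and -0.15 and no longer passed.

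The third comparison, group C vs. B, asked what TCA added in cells under Cu/ES. It shares its libraries with the first comparison (group B) and the second (group C). Past the adjusted p 8 of 10 members were lower and 0 higher, where 23.6% of all genes were lower and 20.4% higher, or 32.9% and 23.2% of the 4750 genes whose mean reached 10 FPKM. Of the members 0 passed both thresholds, which 1.16% of genes did downward and 1.13% upward. The 8 held under TPM, median-ratio and quantile scaling alike, and the median of all genes was -0.03. Library C2 had the highest value of group C for all 10 members, and without it 8 members were lower as before.

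Gpx1 fell most, from 24.8 ± 1.94 to 13.3 ± 2.95 FPKM, a log2 fold change of -0.87 (SE 0.12, adjusted p = 5.82e-05 in limma). Prdx2 followed, from 83.0 ± 2.86 to 46.5 ± 6.35 FPKM, a log2 fold change of -0.83 (SE 0.09, adjusted p = 7.54e-06 in limma), while Junb on the opposite strand was at 631 ± 133 FPKM in group C. Txn1, which Cu/ES alone had raised, was lower in every library of group C than in any of group B, with a log2 fold change of -0.78 (SE 0.11, adjusted p = 8.48e-05 in limma). Sod2 went from 9.94, 9.99 and 10.5 FPKM to 4.56, 6.85 and 5.55, a log2 fold change of -0.76 (SE 0.10, adjusted p = 5.60e-05 in limma). For all 8 members that fell, the libraries of groups B and C did not overlap, as was so downward for 27.2% of all genes and upward for 22%.

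Prdx5 (-0.56), Gpx4 (-0.45), Prdx6 (-0.43) and Prdx3 (-0.39) were lower by smaller log2 fold changes. For Prdx3 the adjusted p of 0.0169 (limma with Benjamini-Hochberg) rose to 0.0836 without library B3 (log2 fold change -0.25), to 0.088 without C3 (-0.27), to 0.0593 with no filter on low genes and to 0.0749 with only the groups compared. Prdx1 did not pass, with a log2 fold change of -0.04 (SE 0.07, adjusted p = 0.696 in limma) and overlapping libraries. Txn2 had a log2 fold change of -0.15 (SE 0.07, adjusted p = 0.116 in limma), also with overlap, and passed without library B2 (-0.21, adjusted p = 0.0444).

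**Figure D4:**
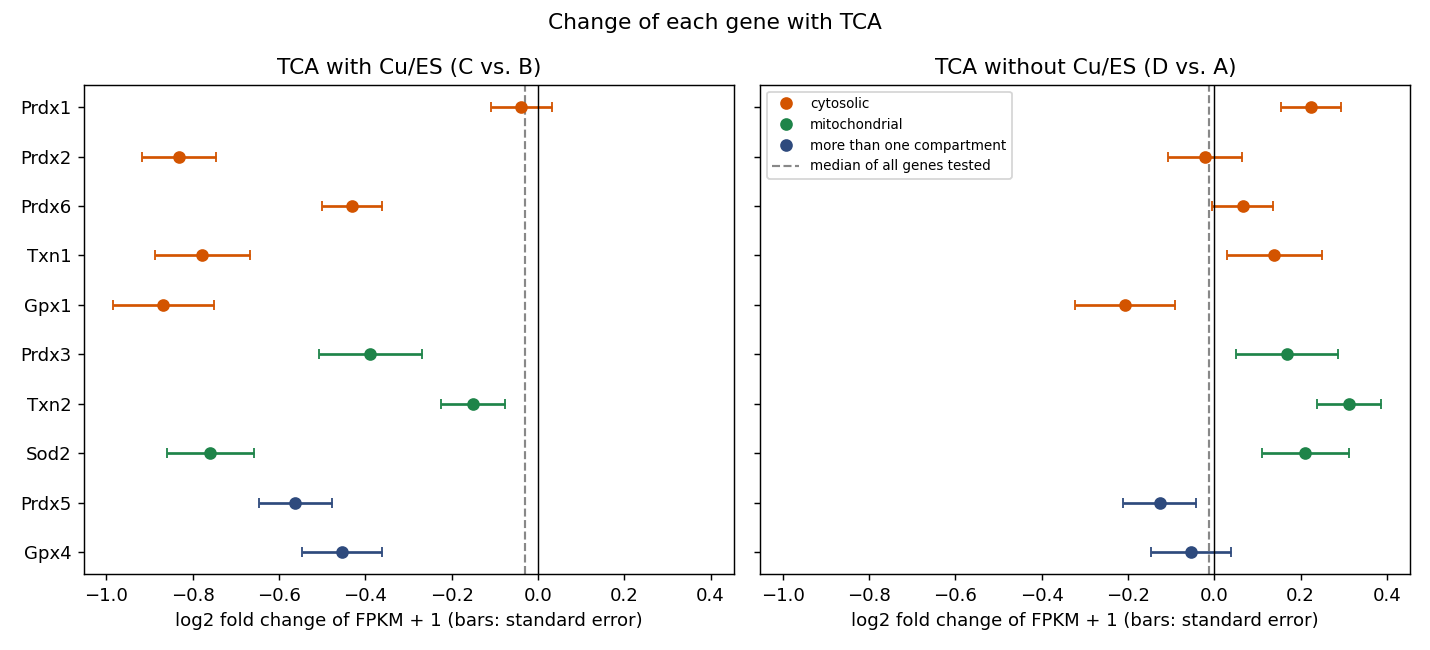
Log2 fold change of FPKM + 1 with TCA for each gene in cells under Cu/ES (left, group C vs. B) and without it (right, group D vs. A), with standard errors and, as a dashed line, the median of all genes tested. All 10 points lie below 0 on the left (Prdx1 at -0.04), and between -0.21 and 0.31 on the right.

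TCA without Cu/ES, group D vs. A, moved the members little. Past the adjusted p Prdx1 and Txn2 were higher and 0 members lower, where 10.5% of all genes were higher and 11.5% lower (16.3% and 7.52% of genes averaging 10 FPKM or more), and 0 members passed both thresholds (0.0659% of genes upward, 0.151% downward). Txn2 had a log2 fold change of 0.31 (SE 0.07, adjusted p = 0.00908 in limma) and passed under all 22 alternatives. Prdx1 had one of 0.22 (SE 0.07, adjusted p = 0.0358 in limma) and passed under 13 of the 22, and not without library A1, A3, D1, D2 or D3, where the log2 fold change was between 0.18 and 0.24. Sod2 had a higher value in every library of group D than in any of group A, as 20.7% of all genes did (23.5% had a lower one), at 15.3, 15.7 and 14.5 FPKM, with a log2 fold change of 0.21 (SE 0.10, adjusted p = 0.152 in limma) that did not pass, and did pass without library C2 (adjusted p = 0.0398) and with only the groups compared (0.0286). The remaining 7 members had log2 fold changes between -0.21 and 0.17 that did not pass.

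The effect of TCA under Cu/ES minus its effect without Cu/ES, the interaction, was below 0 past the adjusted p for 9 of 10 members, where 19.8% of all genes were below and 17.7% above 0, or 30.7% and 15.2% of the more abundant genes just defined. Past both thresholds it was 0 of 10, against 1.73% of all genes below and 1.75% above 0. It was -0.97 for Sod2, -0.92 for Txn1, -0.81 for Prdx2 and -0.66 for Gpx1 on the log2 scale. The adjusted p of these 4 ran from 2.43e-04 for Sod2 to 0.00673 for Gpx1 (limma with Benjamini-Hochberg). For Prdx1 it was -0.26 (SE 0.10, adjusted p = 0.0515 in limma), and the adjusted p was 0.0366, 0.0265 and 0.0148 without library A2, B2 or C2. Quantile normalization left 6 members below 0 past the adjusted p and no filter left 7, without Prdx3 (adjusted p = 0.0657, limma with Benjamini-Hochberg) and Gpx4 (0.0794). The call for Gpx4 (adjusted p = 0.0281, limma with Benjamini-Hochberg) was also lost without library A1, B3, C1, C3 or D1, where it ran from 0.0678 to 0.0712.

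Partner genes that make, recharge or supply the members were listed by role, 47 in all, of which 43 were tested. Gpx2, Gpx3, Gpx7 and Sod3 had a mean FPKM below 1, with none above 0.806 in any library. Between groups A and B, 7 partners rose and 21 fell past both thresholds, 11 rose and 29 fell past the adjusted p, and Srxn1, Prdx4 and Glrx5 did not pass. Their median of -0.99 was close to the -1.10 of all genes, and median-ratio scaling gave 21 higher and 18 lower of 42 tested. Gclm, the modifier subunit of the enzyme that limits glutathione synthesis, rose most, from 15.4 ± 0.944 to 362 ± 20.7 FPKM, a log2 fold change of 4.46 (SE 0.07, adjusted p = 6.92e-15 in limma). Txnrd1, the cytosolic reductase of thioredoxin, rose from 83.1 ± 3.54 to 488 ± 11.2 FPKM (log2 fold change 2.54), and Taldo1, an enzyme of the pentose phosphate pathway, from 78.2 ± 4.15 to 407 ± 8.67 (2.36). The stress-inducible sestrin Sesn2 rose from 29.5 ± 1.61 to 137 ± 9.21 FPKM (2.18).

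By role, counts are to be read beside the 20.1% of all genes that rose and the 72% that fell past the adjusted p. The 10 tested glutathione genes split into 4 higher and 5 lower past the adjusted p, with a median of -0.17, and the 12 of the peroxiredoxin and thioredoxin system into 3 higher and 7 lower. Sod1, the copper- and zinc-dependent superoxide dismutase of the cytosol, rose (log2 fold change 0.89) while Ccs, its copper chaperone, fell (-1.50). Of the 8 genes of NADPH supply 3 rose and 5 fell, with the falls led by Idh1, the cytosolic and peroxisomal isocitrate dehydrogenase (-3.30), Idh2, the mitochondrial one (-2.71), and Nnt, the mitochondrial transhydrogenase (-2.64). All 6 genes of selenoprotein synthesis fell past the adjusted p, with a median of -1.47. Pstk, the kinase that prepares the selenocysteine transfer RNA, fell most, from 11.2 ± 1.32 to 0.169 ± 0.0617 FPKM (log2 fold change -3.38). All 4 methionine sulfoxide reductases fell as well, with a median of -1.26, and with 72% of all genes falling such counts in small lists are near the background. These directions were relative to the scaling, since with median-ratio scaling 2 of the 6 selenoprotein synthesis genes were higher and 4 lower and 0 of 3 methionine sulfoxide reductases higher and 2 lower, while the glutathione genes became 8 higher and 2 lower. Txnrd2, the mitochondrial reductase, fell by 1.09 on the log2 scale, which became 0.28 with quantile normalization, and the sestrin Sesn3 fell by 2.82.

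**Figure D5:**
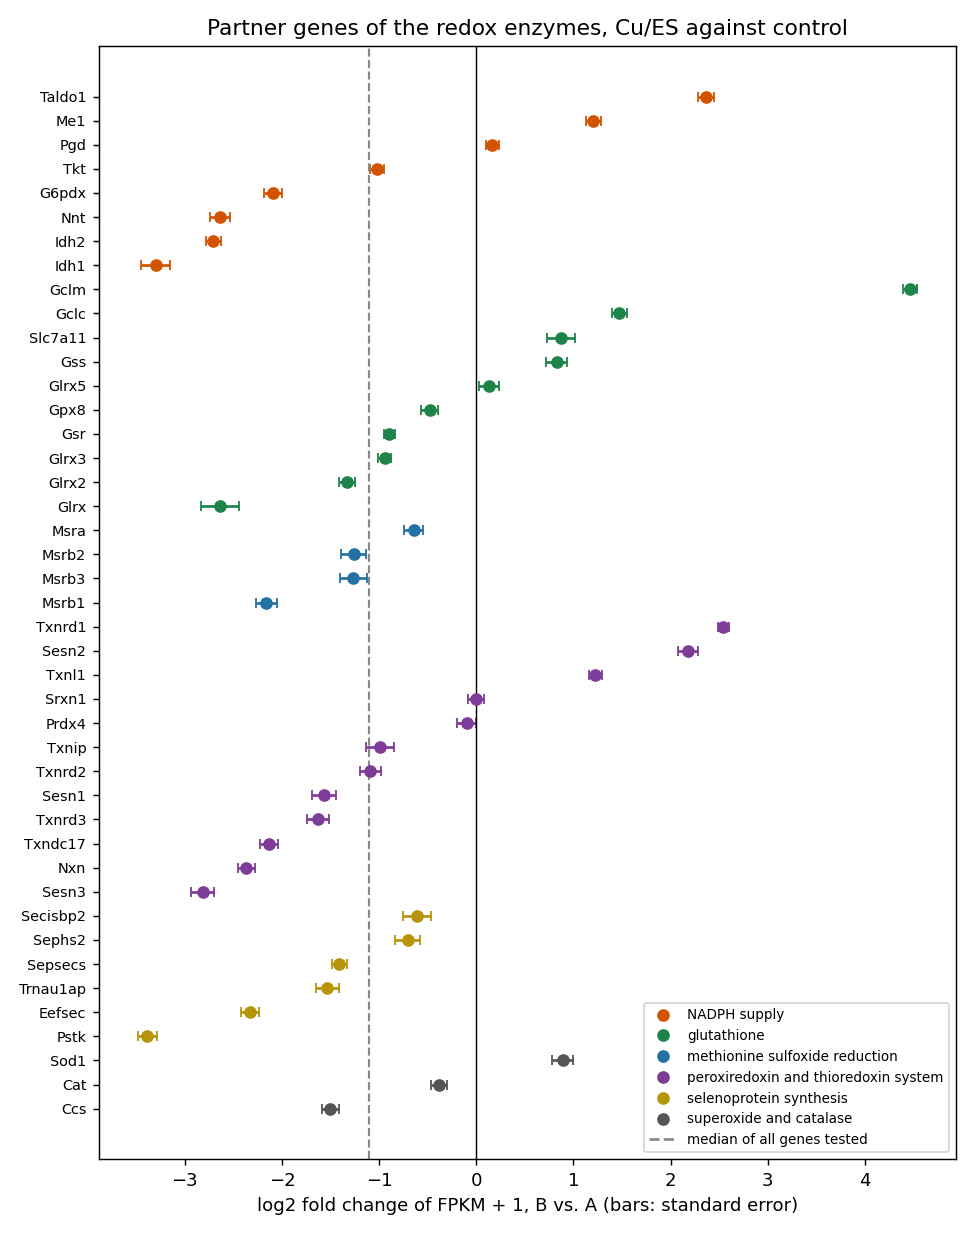
Log2 fold change of FPKM + 1 between groups A and B for the 43 partner genes tested, by role, with standard errors and, as a dashed line, the median of all genes tested (-1.10). Gclm lies farthest right at 4.46 and Pstk farthest left at -3.38, and each role but selenoprotein synthesis and methionine sulfoxide reduction has genes on both sides of 0. Of the genes named by rule, Prdx4, Glrx2, Glrx5 and Txnrd2 change sign under another scaling. Srxn1, close to 0, does so with TPM.

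Between groups B and C, 5 of 43 partners were higher and 15 lower past the adjusted p, where 20.4% of all genes were higher and 23.6% lower, or 23.2% and 32.9% of those averaging 10 FPKM or more. Idh2 fell most, from 3.88 ± 0.0315 to 1.02 ± 0.087 FPKM, a log2 fold change of -1.28 (SE 0.08, adjusted p = 2.00e-07 in limma). Prdx4, the peroxiredoxin of the endoplasmic reticulum, fell from 31.8 ± 2.47 to 17.9 ± 1.49 FPKM (-0.79), and Ccs and Nnt each fell by 0.60 on the log2 scale. The 5 that rose were Sesn3 (0.58), Txnrd3 (0.54), Glrx5 (0.30), Txnrd1 (0.29) and Gclm (0.20). Txnrd3, the third thioredoxin reductase, was named after its values were seen. The calls of Glrx5 and Gclm were each lost without any one of 4 libraries, B1, B2, C2 or C3 for Glrx5 (adjusted p up to 0.102) and B1, B3, C2 or C3 for Gclm (up to 0.107).

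Over the 12 libraries, the gene whose log2(FPKM + 1) followed each member most closely was looked up among 6868 other genes averaging 5 FPKM or more. For Prdx1 it was Psmc3, an ATPase of the proteasome (Pearson r = 0.999), at 100.1 ± 5.65 FPKM in group A and 438 ± 16.0 in group B. For Prdx3 it was Tma7 (r = 0.998), for Prdx5 Ldha, a subunit of lactate dehydrogenase (0.997), for Gpx1 Tacc3 (0.997), for Gpx4 Tmem205 (0.996) and for Prdx6 Cdca5 (0.996). For Txn1 it was Hint1 (0.992), for Prdx2 Uqcrb, a subunit of respiratory complex III (0.991), for Sod2 the arginine methyltransferase Prmt1 (0.991) and for Txn2 Ube2j2 (0.919). The 12 points fall into libraries with and without Cu/ES and share library totals and scaling, so these r values describe the pattern over groups and carry no p.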

How the data were processed

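The authors deposited FPKM values (fragments scaled to gene length and library total), with 1 column for each of 12 libraries. The submitters' processing notes name fastp, HISAT2, HTSeq and the build GRCm39, and the authors' own differential expression used DESeq2. All columns of values were mapped to samples (0 unmapped). The members, partner lists and markers were chosen with earlier results of these data known.

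Values were compared as log2(FPKM + 1) with limma 3.58.1 (R 4.3.3) in one fit of all 12 libraries with groups as terms, a mean-variance trend and moderated variances, over 10615 genes averaging at least 1 FPKM, two-sided, with Benjamini-Hochberg adjustment over all genes tested. A fold change on this scale understates changes of low genes. Both thresholds means an adjusted p below 0.05 together with a log2 fold change beyond 1 in either direction. Reads were recovered from the spacing of FPKM values, and 22210 of 22212 genes above 0 in at least 2 libraries (99.991%) gave whole reads within 0.02. Pairs were compared by exact permutation tests. Partners named are those of the pairs and, for group B vs. A and C vs. B, the 4 largest rises and 4 largest falls past the adjusted p with a mean FPKM of at least 5.

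Alternatives were a pseudocount of 0.1, no filter, a filter at 5 FPKM, TPM, median-ratio and quantile scaling, a replicate block, no trend, only the groups compared, limma-voom on recovered reads, and each library left out. The fit was tested on simulated data. Exon overlaps came from the GENCODE annotation of GRCm38, with matches at 95% identity over 100 bases looked for between transcripts, and promoters came from RefSeq. Prdx1, Txn1, Prdx2 and Gpx4 have such matches to pseudogenes and Sod2 to 12 other genes, and reads may be split between them. Tables and plots were made in Python 3.11.15 with scipy 1.17.1, numpy 2.4.6, matplotlib 3.10.9 and pandas 2.3.3.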

Additional observations from a re-analysis of the deposited data

Results flagged for a closer look

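The effect of TCA on the log2 scale differed between cells with and without Cu/ES (interaction in limma with Benjamini-Hochberg adjustment) for 9 members. The difference, the effect with Cu/ES minus that without, was -0.97 for Sod2, -0.92 for Txn1, -0.81 for Prdx2, -0.66 for Gpx1, -0.56 for Prdx3, -0.50 for Prdx6, -0.46 for Txn2, -0.44 for Prdx5 and -0.40 for Gpx4. Among the partner genes named, it was below 0 for Idh2 (-0.92), Sesn2 (-0.78), Prdx4 (-0.59), Ccs (-0.52), Taldo1 (-0.51), Nnt (-0.38) and Gclm (-0.33), and above 0 for Sesn3 (0.91). Idh2, Prdx4, Ccs, Nnt and Sesn3 were named for their changes between groups B and C, which enter the interaction, so that choice favours these signs. The change between groups A and B enters it too, with the opposite sign. Gclm, Taldo1 and Sesn2 were named for rises there, which favours values below 0, though Gclm was also named for a rise between groups B and C. Sesn3 and Idh2 were also named for falls between groups A and B, which favours values above 0. Of all 43 partners tested, 16 were below and 3 above 0 past the adjusted p, where 19.8% and 17.7% of all genes were. For Sesn2 and Gclm the effect of TCA without Cu/ES was positive, at 0.62 and 0.53. The call for Nnt (adjusted p = 0.0442, limma with Benjamini-Hochberg) was lost without any one of the libraries A1, A3, B1, B3, C3, D2 and D3, where the adjusted p ran from 0.0527 to 0.111.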

How the results depend on the processing

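Between groups A and B the number of members lower past both thresholds was 2, and 4 with TPM, 0 with median-ratio scaling and 4 with quantile normalization. In group C vs. D the number higher was 1, and 4 with median-ratio scaling and 2 with quantile normalization, and the number lower was 6, and 2 with median-ratio scaling. Signs turned with median-ratio scaling in group B vs. A for Prdx2 (0.95), Sod2 (0.86), Prdx5 (0.32), Gpx4 (0.52) and Prdx4 (1.15), and in group C vs. D for Prdx2 (0.11), Txn2 (1.14), Gpx4 (0.0887) and Prdx4 (0.52). With quantile normalization they turned in group B vs. A for Sod2 (0.76), Glrx2 (0.0255), Prdx4 (0.38) and Txnrd2 (0.28), and in group C vs. D for Txn1 (-0.31) and Txnrd2 (0.0588). With TPM they turned in group B vs. A for Txn2 (-0.0132) and Glrx5 (-0.23). These lists cover the members and the partners named by rule. Srxn1, not among them and close to 0 in group B vs. A, also turned there with TPM. In group D vs. A the members higher past the adjusted p were 2, and 1 with a pseudocount of 0.1, no filter, median-ratio scaling or no trend, 4 with only the groups compared, and 1 to 3 with a library left out. The number lower there was 0, and 1 with quantile normalization or only the groups compared. With a library left out, group C vs. B had 7 to 9 members lower, the interaction 8 to 10 and group B vs. A 2 to 3. The mitochondrial minus the cytosolic median in group B vs. A was -0.19 with quantile normalization, -1.85 with Prdx5 and Gpx4 counted as mitochondrial and -1.56 without Gpx1. In group C vs. D it was -1.47, and -1.60 with a pseudocount of 0.1 or limma-voom, -1.83 without Gpx1 and 0.16 with quantile normalization, and in group D vs. A 0.15, and 0.22 with quantile normalization. With a pseudocount of 0.1, ratios within libraries moved to -5.49 for Prdx3/Prdx1 (C vs. D), -3.84 and -4.12 for Txnrd2/Txnrd1 (B vs. A, C vs. D), -2.14 and -0.63 for Sod2/Sod1 (C vs. D, C vs. B) and 1.10 for Glrx2/Glrx (B vs. A). The cause of these differences was not tested. Same-numbered libraries of different groups deviated from their group means with a mean r of 0.125 (from -0.171 to 0.579 over 18 pairs), against -0.059 for the other 36. The mean was thus higher for same numbers, so some shared deviation cannot be set aside. The study's methods state no block, and the main fit had none. In a fit with the replicate block, the counts of members were 3 higher and 2 lower (B vs. A), 1 and 6 (C vs. D), 0 and 9 (interaction), 2 and 0 (D vs. A) and 0 and 8 (C vs. B), as without it. Depth does not limit the members, none of which had fewer than 297 reads in any library.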
